A study of Danio rerio with 32 samples.

Results

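The histone genes of embryonic zebrafish were followed in eyes and brains after exposure to a perfluoroalkyl acid under normal or absent light. The genes were taken by name from the deposited table: protein-coding genes whose symbol begins with hist1h, hist2h, histh1, h2af, h3f3 or h1f. FPKM are fragments per kilobase, scaled by a divisor of 0.899 to 1.16 times the fragment total of the library. Each gene had to reach 1 FPKM in at least 4 libraries. Of 32520 genes in the table, 17503 protein-coding genes reached that level, and 34 of the 35 genes with such a symbol were among them. The exception was h2af1al, whose highest value was 0.873 FPKM. The 34 genes were split into 21 replication histones (symbols beginning with hist1h or hist2h), 10 variants and 3 linkers. A further 120 expressed protein-coding genes carry a histone description but no such symbol. They were counted after the table had been seen and are given as counts, with medians for the H1 and H2B genes among them. Summed levels are given for these H1 genes and, in some brains, for all 120.

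All embryos were labelled wildtype and all medium held 0.1% DMSO. Exposure began at 0.75 h and ended at 120 h after fertilization, when eyes and brains were dissected. PFNA embryos received 12.5 µM PFNA, the usual abbreviation of perfluorononanoic acid, and DMSO embryos received the vehicle alone. DD embryos were kept in 24 h of darkness and LD embryos in 14 h of light and 10 h of darkness. The 8 groups were therefore DD PFNA, DD DMSO, LD PFNA and LD DMSO in each of eyes and brains, with 4 libraries each. Sample labels give the compound as PFNA; the design description writes PFHxS for this dose, and the name in the labels is used here. Nothing in the labels says whether replicates came from separate clutches, so p-values measure only the spread between these samples. Replicate values are listed in the order of replicates 1 to 4.

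DNA is wound around octamers of the core histones H2A, H2B, H3 and H4, and linker histone H1 sits where DNA enters and leaves each octamer. Replication histones are made in large amounts while DNA is copied in S phase, and their mRNAs normally end in a stem-loop instead of a poly(A) tail. Variants such as H3.3, H2A.Z and macroH2A, and the H1.0 linker, come mostly from genes outside those clusters and are made in dividing and non-dividing cells alike. In the brain and retina of young fish, dividing progenitors and freshly formed neurons lie side by side.

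The replication histones comprised 17 H2A genes, 2 H2B genes (hist1h2ba and hist2h2l), 1 H3 gene (hist2h3c) and 1 H4 gene (hist1h4l). Of the H2A genes, 8 lay on chromosome 7 and 9 on chromosome 25. Several copies carried the same symbol, and such copies are told apart here by position. The variants were h2afx and h2afx1 (H2A.X), h2afva and h2afvb (H2A.Z), h3f3a, h3f3c and 2 genes named h3f3b.1 (H3.3), and h2afy and h2afy2 (macroH2A). The linkers were histh1l (ENSDARG00000035519, chr5:27432958-27434351), h1f0 (ENSDARG00000038559, chr24:37567029-37568359) and h1fx (ENSDARG00000054058, chr6:40769517-40771813), in the coordinates of the deposited table, whose genome build is not given in the sources used here. Copies of nearly the same sequence can share reads, so values of single H2A copies are uncertain. Values are also uncertain for genes whose models overlap another. On chromosome 7, dusp19b spans the cluster, on the same strand as some copies and opposite to others. For h1fx the overlapping gene is arpc4, on the same strand, and BX323062.1 lies opposite histh1l. The strand of counting is not stated, which matters for the overlaps on opposite strands. Whether the libraries were made with poly(A) selection or rRNA depletion is not stated either, and the level of stem-loop mRNAs depends on that choice.

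Libraries held 8.83 to 16.13 M fragments, and a histone gene rested on 4 to 32305 fragments per library, with a median of 404. Replicate 3 of the DD PFNA brains was left out: rho, the rod opsin, stood at 1283 FPKM in it and at 0.126 to 7.74 FPKM in the other 15 brain libraries, against 1161 to 3593 FPKM in the 16 eyes. Its mbpa, a myelin gene, stood at 3.77 FPKM, against 46.6 to 101 FPKM in the other brains. Eye DD PFNA replicate 4 stood apart from its group in another way. It held the highest mitochondrial share of all libraries (10.01% of fragments), against 5.07% to 6.17% in the other DD PFNA eyes. Next came brain DD DMSO replicate 1 at 9.09%, and the lowest share was 4.66%. The divisor behind its FPKM was 0.899 times its fragment total in eye DD PFNA replicate 4, the lowest of all libraries, which raises its FPKM relative to scaling by the total. Eye DD PFNA replicate 4 also had the highest value of its group for 30 of the 34 histone genes, so the eye counts are also given without it. Because it was picked partly by these histone values, histone calls gained without it are no independent evidence. Markers of exocrine pancreas and gut moved with darkness in vehicle tissue: their summed level was 52.3 to 368 FPKM in the DD DMSO brains and 13.1 to 31.7 FPKM in the LD DMSO brains, and 7 of 7 tested markers rose. In eyes it was 58.9 to 309.8 FPKM in the DD DMSO group and 20.02 to 93.96 FPKM in the LD DMSO group, where 6 of 8 tested markers rose (8 of 8 without eye DD PFNA replicate 4). Of the 10 markers, ctrb1 was at 0 in every library of these 4 groups and fabp2 in every LD DMSO library. In the DD PFNA brains the same sum was 13.2 to 27.8 FPKM, and 6 of 7 tested markers fell against the DD DMSO brains. The part of such tissue in the histone results was not tested.

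The mRNA of the 3 named linkers rose with PFNA under LD in both tissues. The summed level of other genes described as H1, given further below, overlapped there between PFNA and DMSO. All 3 linkers rose in LD eyes and all 3 rose in LD brains, where histh1l reached 7.36 times its vehicle level. In DD, histh1l alone of the 3 rose with PFNA by the test, in eyes and in brains. Among vehicle embryos, darkness by itself also raised all 3 named linkers in both tissues. The other genes described as H1 averaged lower in darkness there. Their mean sum was 490 FPKM in the DD DMSO brains and 1008 FPKM in the LD DMSO brains. In eyes it was 558 and 738 FPKM in the same order, and the ranges overlapped in both tissues. Called means an adjusted p under 0.05 in limma (Benjamini-Hochberg over all genes tested); changes are on the scale of log2(FPKM + 1) and carry standard errors. In LD eyes 7.05% of all genes were called higher with PFNA and 3.7% lower; in LD brains these shares were 5.62% and 2.28%. In DD, 6.54% of all genes were called higher with PFNA in eyes and 4.82% in brains, and with darkness in vehicle embryos 6.22% were called higher in eyes and 6.39% in brains. In bulk tissue, fewer cells of a type and less RNA per cell cannot be told apart.

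histh1l encodes an H1 protein and was the most abundant of the linkers per length in eyes. It had 1506, 1428, 1265 and 1512 FPKM in the LD PFNA eyes, against 312, 410.4, 543 and 479 FPKM in the LD DMSO eyes. Every PFNA library stood above every vehicle library, and the change was 1.74 ± 0.23 (adjusted p = 0.000159). In LD brains it had 911, 887, 853 and 924 FPKM in the LD PFNA brains, against 88.1, 81.9, 183 and 133 FPKM in the LD DMSO brains. The groups lay far apart there, with a change of 2.95 ± 0.29 (adjusted p = 3.12e-05). Under DD it had 1308, 1966, 2278 and 2339 FPKM in the DD PFNA eyes, against 976, 649, 1283 and 1108 FPKM in the DD DMSO eyes. The lowest PFNA eye stood just above the highest vehicle eye, and the change was 0.98 ± 0.23 (adjusted p = 0.0114) with all libraries and 0.89 ± 0.23 (adjusted p = 0.0206) without eye DD PFNA replicate 4. In DD brains it had 919, 994 and 827 FPKM in the DD PFNA brains, against 320.2, 187, 608 and 379 FPKM in the DD DMSO brains. The groups did not overlap, and the change was 1.41 ± 0.32 (adjusted p = 0.0166); the call was lost without brain DD PFNA replicate 1 (adjusted p = 0.0590) or replicate 2 (adjusted p = 0.0713).

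The same values show the step with darkness in vehicle embryos. histh1l changed by 1.19 ± 0.23 in the DD DMSO eyes against the LD DMSO eyes (adjusted p = 0.00420) and by 1.57 ± 0.29 in brains (adjusted p = 0.00298). In brains the lowest DD vehicle library barely cleared the highest LD one, at 187 and 183 FPKM. With PFNA present, DD and LD libraries overlapped in both tissues, with differences of 0.43 ± 0.23 in eyes (adjusted p = 0.197) and 0.028 ± 0.32 in brains (adjusted p = 0.974). The PFNA contrast under LD and the darkness contrast in vehicle embryos share the LD DMSO libraries, so they are not independent of each other.

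h1f0 encodes H1.0, which in mammals accumulates in cells that have stopped dividing. It had 338, 334, 347 and 346 FPKM in the LD PFNA eyes, against 131, 103, 191 and 137 FPKM in the LD DMSO eyes. It had 507, 479, 509 and 534 FPKM in the LD PFNA brains, against 101, 173, 193 and 167 FPKM in the LD DMSO brains. In neither tissue did the groups overlap under LD, and the changes were 1.31 ± 0.23 in eyes (adjusted p = 0.00165) and 1.71 ± 0.16 in brains (adjusted p = 1.66e-05). Under DD, h1f0 had 438, 450.4, 513 and 872 FPKM in the DD PFNA eyes, against 291, 555, 408 and 400.2 FPKM in the DD DMSO eyes, and it had 597, 632 and 721 FPKM in the DD PFNA brains, against 481, 419, 474 and 398 FPKM in the DD DMSO brains. The eye groups overlapped, and replicate 4 was the highest DD PFNA eye. The brain groups did not overlap, yet neither difference was called, at 0.43 ± 0.23 in eyes (adjusted p = 0.259) and 0.55 ± 0.17 in brains (adjusted p = 0.0724). Without eye DD PFNA replicate 4 the eye difference was 0.21 ± 0.19 (adjusted p = 0.533), and without brain LD DMSO replicate 1 the brain difference was called (adjusted p = 0.00629). With darkness in vehicle embryos h1f0 rose by 1.55 ± 0.23 in eyes (adjusted p = 0.000848) and 1.51 ± 0.16 in brains (adjusted p = 7.68e-05).

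h1fx, the gene of the H1X (H1.10) linker, was the least abundant of the 3. It had 68.9, 52.4, 59.00 and 60.9 FPKM in the LD PFNA eyes, against 30.9, 15.6, 39.9 and 15.97 FPKM in the LD DMSO eyes. It had 54.7, 40.98, 46.8 and 50.9 FPKM in the LD PFNA brains, against 8.68, 14.7, 14.7 and 10.1 FPKM in the LD DMSO brains. The LD groups did not overlap in either tissue, and h1fx rose by 1.31 ± 0.29 in eyes (adjusted p = 0.00846) and 1.94 ± 0.18 in brains (adjusted p = 1.50e-05). Under DD it had 111, 104, 115 and 221 FPKM in the DD PFNA eyes, against 79.9, 146, 105 and 87.2 FPKM in the DD DMSO eyes, and it had 81.8, 102 and 118 FPKM in the DD PFNA brains, against 65.4, 72.2, 80.2 and 50.6 FPKM in the DD DMSO brains. Neither DD difference was called, at 0.36 ± 0.29 in eyes (adjusted p = 0.491; 0.11 ± 0.27 and 0.847 without eye DD PFNA replicate 4) and 0.58 ± 0.19 in brains (adjusted p = 0.0916), although the brain groups did not overlap. Darkness gave h1fx the largest change of any of the 34 genes in vehicle embryos, at 2.06 ± 0.29 in eyes (adjusted p = 0.000637) and 2.397 ± 0.18 in brains (adjusted p = 1.26e-05). With every library in the fit it was also the only histone gene to rise with darkness in PFNA embryos, by 1.03 ± 0.19 in brains (adjusted p = 0.00522) and 1.11 ± 0.29 in eyes (adjusted p = 0.0218). The eye call was lost without eye DD PFNA replicate 4 (0.86 ± 0.27, adjusted p = 0.0573) or eye LD PFNA replicate 2 (adjusted p = 0.0581). For h1f0 the same step was 0.67 ± 0.23 in eyes (adjusted p = 0.0553) and 0.35 ± 0.17 in brains (adjusted p = 0.220), without overlap in either tissue. It was called in 5 of the fits that left out 1 eye library (adjusted p 0.0402 to 0.0489) and in brains without brain LD DMSO replicate 1 (adjusted p = 0.0464), but not without eye DD PFNA replicate 4 (0.45 ± 0.19, adjusted p = 0.148).

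**Figure D1:**
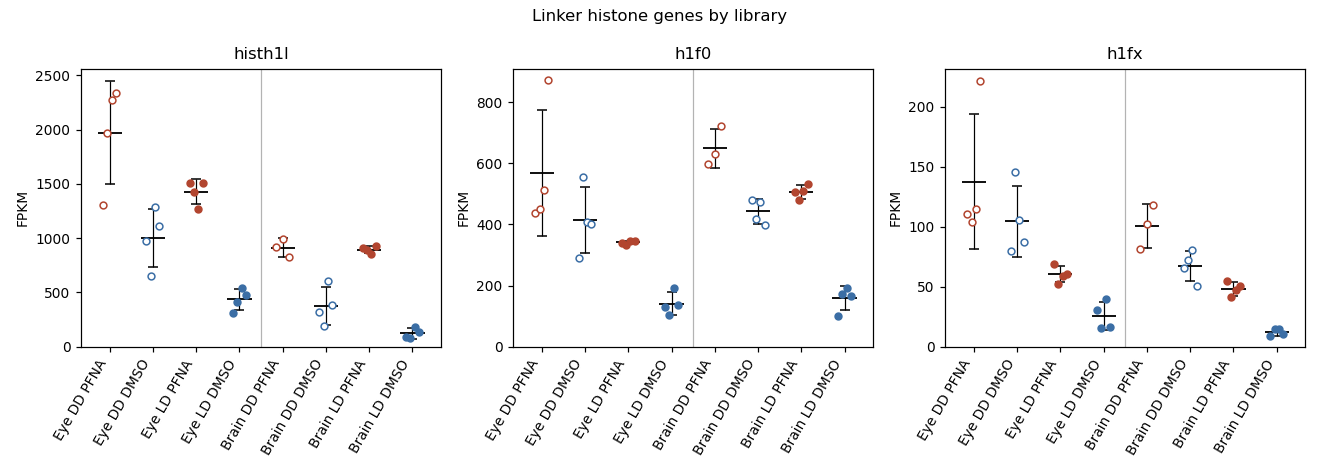
FPKM of histh1l, h1f0 and h1fx in every library, by group, with eyes and brains side by side; open symbols are DD, filled symbols LD, red PFNA and blue DMSO, and bars give the mean and SD. The LD DMSO libraries were the lowest group of each tissue for all 3 genes, with histh1l at 81.9 to 183 FPKM in the LD DMSO brains.

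Each linker stood further above vehicle with PFNA under LD than under DD, but the difference between those effects was not called for any of them with every library in the fit. It was -0.75 ± 0.32 for histh1l, -0.88 ± 0.32 for h1f0 and -0.95 ± 0.41 for h1fx in eyes (adjusted p = 0.387, 0.321 and 0.401). In brains it was -1.54 ± 0.43, -1.16 ± 0.23 and -1.36 ± 0.26 for the same genes (adjusted p = 0.369, 0.125 and 0.104). Without brain DD DMSO replicate 4, h1fx was called in brains (-1.49 ± 0.25, adjusted p = 0.0379). With every library none of the 34 genes was called for this difference in limma, in either tissue; over all genes 0.137% were called in eyes and 0.00581% in brains. At an unadjusted p under 0.05 there were 14 histone genes in eyes and 5 in brains, and voom on recovered fragments called 0 in both, with 20 and 4 under that unadjusted p. Without eye DD PFNA replicate 4 the eye count was 0 as well, with 13 under an unadjusted p of 0.05 and a smallest adjusted p of 0.0598.

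Most replication histones fell with darkness in brains, and 9 of the 21 fell with PFNA in LD eyes. In the DD DMSO brains 15 of 21 were lower than in the LD DMSO brains by the test, and in the DD PFNA brains 15 of 21 were lower than in the LD PFNA brains; none was higher in either comparison. Over all genes 9.68% were called lower with darkness in vehicle brains and 5.97% in PFNA brains. The median change of the 21 genes was -0.88 in vehicle brains and -1.001 in PFNA brains, against -0.00046 and -0.0007 over all genes tested. In LD eyes with PFNA the median was -0.81, against 0.011 over all genes. In LD brains no replication histone fell with PFNA and 1 rose.

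Summed over the 21 genes, replication histone mRNA stood at 776 to 821 FPKM in the DD PFNA brains and 1596 to 2159 FPKM in the LD PFNA brains. It stood at 693 to 951 FPKM in the DD DMSO brains and 1455 to 1919.6 FPKM in the LD DMSO brains. Every DD brain was below every LD brain, and PFNA and DMSO brains overlapped within each photoperiod. In eyes the sum was 1230.3 to 1460.5 FPKM in the LD PFNA group and 1935 to 2245 FPKM in the LD DMSO group, without overlap. The DD DMSO eyes stood at 1028 to 1713 FPKM, also wholly below the LD DMSO eyes. The DD PFNA eyes stood at 1009 to 2432 FPKM with all 4 libraries (mean 1448 ± 662, SD) and at 1009 to 1236 FPKM without replicate 4, which alone exceeded the LD DMSO range.

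The 3 linkers ran the other way with darkness in vehicle embryos and with PFNA in LD eyes. In brains their sum stood higher with PFNA, while the replication sums of PFNA and DMSO overlapped. The summed linker level was 1671 to 1919 FPKM in the LD PFNA eyes against 474 to 774 FPKM in the LD DMSO eyes. In brains it was 1407 to 1508 FPKM in the LD PFNA group against 198 to 391 FPKM in the LD DMSO group. Under DD it was 1856 to 3433 FPKM in PFNA eyes against 1347 to 1796 FPKM in DMSO eyes, and 1598 to 1728 FPKM in PFNA brains against 677 to 1162 FPKM in DMSO brains. Within each tissue and photoperiod the PFNA and DMSO groups did not overlap, and the DD PFNA eyes reached 2906 FPKM without replicate 4. The ratio of summed linker to summed replication histone FPKM was 1.14 to 1.56 in the LD PFNA eyes against 0.233 to 0.367 in the LD DMSO eyes. It was 1.41 to 2.35 in the DD PFNA eyes against 0.932 to 1.48 in the DD DMSO eyes; without replicate 4, the lowest DD PFNA eye for this ratio, the DD PFNA range began at 1.84. In brains it was 0.6800 to 0.883 in the LD PFNA group against 0.111 to 0.203 in the LD DMSO group. The DD PFNA brains had the narrowest range, 2.05 to 2.11, against 0.738 to 1.25 in the DD DMSO brains. The LD DMSO libraries held the lowest ratio in each tissue, below every library of the other 3 groups. These sums and ratios cover the named genes only. They leave out the 120 other described histones, which summed to 11725 to 13705 FPKM in the LD DMSO brains. The ratio is therefore no measure of all linker against all replication histone mRNA.

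**Figure D2:**
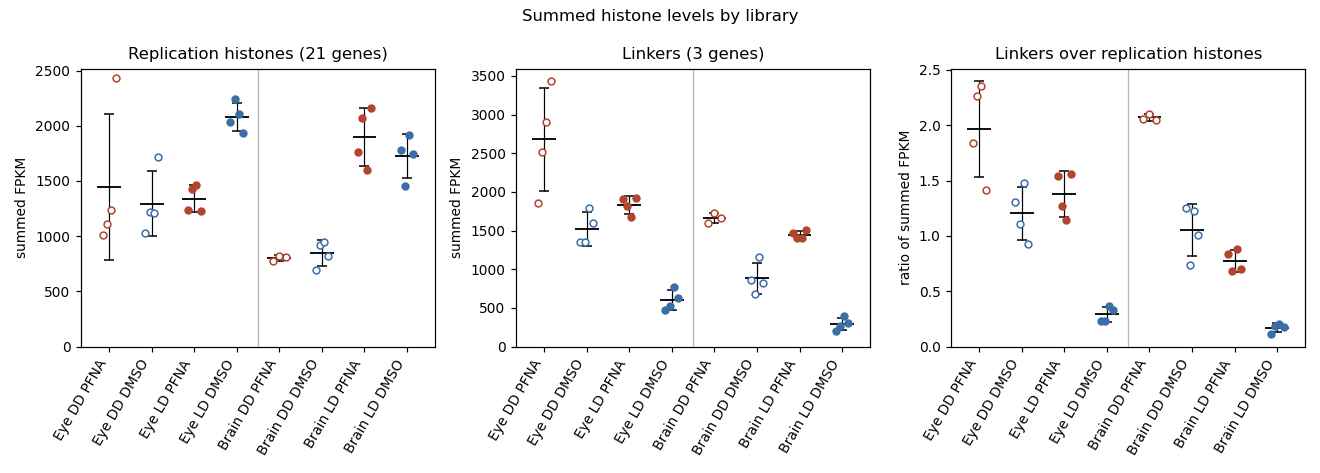
Summed FPKM of the 21 replication histones, summed FPKM of the 3 linkers, and their ratio, for every library by group (open DD, filled LD, red PFNA, blue DMSO; bars mean and SD). In brains the replication sum separates DD from LD, whereas the linker sum separates the LD DMSO libraries (198 to 391 FPKM) from all others.

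Within the H2A genes of brains, both chromosome clusters moved. On chromosome 7, 5 of 8 copies fell with darkness in vehicle brains and 5 of 8 in PFNA brains, with median changes of -0.81 and -0.99. On chromosome 25, 7 of 9 fell in each, with medians of -0.89 and -1.06. Over the 17 copies the changes in vehicle brains lay between -1.29 and 0.15, and only hist1h2a4, the copy of lowest level, was above 0.

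The brain copies with the smallest p are given by library. hist1h2a5 (chr25:35151841-35152227) had 53.5, 45.6 and 51.8 FPKM in the DD PFNA brains, against 128, 162, 110.2 and 179 FPKM in the LD PFNA brains, and it had 69.6, 74.2, 79.2 and 53.2 FPKM in the DD DMSO brains, against 150.3, 127, 154 and 129.8 FPKM in the LD DMSO brains. DD and LD libraries did not overlap with or without PFNA, and it fell by 1.48 ± 0.16 in PFNA brains (adjusted p = 0.000353) and by 1.02 ± 0.15 in vehicle brains (adjusted p = 0.000720). hist1h2a6 (chr7:6426736-6427198) had 29.2, 31.2 and 39.98 FPKM in the DD PFNA brains, against 106, 119, 97.6 and 127 FPKM in the LD PFNA brains. Its PFNA brains in DD all lay below those in LD, with a change of -1.72 ± 0.21 (adjusted p = 0.000690), and in vehicle brains it changed by -1.09 ± 0.20 (adjusted p = 0.00231). The hist1h2a11 copy at chr7:5975194-5975991 had 5.696, 8.595, 9.09 and 7.57 FPKM in the DD DMSO brains, against 25.05, 15.7, 20.6 and 15.8 FPKM in the LD DMSO brains. The DD vehicle brains were all lower, by 1.21 ± 0.17 (adjusted p = 0.000606).

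hist2h3c, the H3 gene of the replication class (ENSDARG00000094154, chr25:35051656-35052155), showed the largest fall with darkness in vehicle brains of the 34 genes. It had 31.5, 40.5, 45.1 and 27.4 FPKM in the DD DMSO brains, against 183, 126, 207 and 159.7 FPKM in the LD DMSO brains. It had 35.99, 49.1 and 46.7 FPKM in the DD PFNA brains, against 114, 148, 113 and 116 FPKM in the LD PFNA brains. DD and LD did not overlap with either treatment, and the changes were -2.20 ± 0.17 with DMSO (adjusted p = 1.26e-05) and -1.46 ± 0.19 with PFNA (adjusted p = 0.000802). In eyes it had 33.5, 41.8, 39.96 and 58.4 FPKM in the DD DMSO eyes, against 84.2, 89.7, 92.5 and 87.7 FPKM in the LD DMSO eyes. The vehicle eyes were again lower in DD without overlap, by 1.04 ± 0.23 (adjusted p = 0.00936). The difference of the darkness effect between eyes and brains was 1.16 ± 0.30 for hist2h3c (adjusted p = 0.0752), the smallest adjusted p of the 34 genes for that difference. It was not called with every library, but it was called without eye DD PFNA replicate 4 (adjusted p = 0.0211), eye LD PFNA replicate 2 (0.0475) or brain LD DMSO replicate 2 (0.0447).

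hist1h4l, the H4 gene (chr7:5959203-5959818), fell with darkness by 1.007 ± 0.19 in vehicle brains (adjusted p = 0.00307) and 0.97 ± 0.21 in PFNA brains (adjusted p = 0.0103). Its ranges were 83.2 to 124 FPKM in the DD PFNA brains and 161 to 256 FPKM in the LD PFNA brains, and 95.3 to 124 FPKM in the DD DMSO brains and 159.6 to 289 FPKM in the LD DMSO brains. In LD eyes it fell with PFNA (147 to 181 FPKM in the PFNA group, against 310.2 to 339 FPKM in the DMSO group; change -0.99 ± 0.30, adjusted p = 0.0434), a call that was lost in 11 of 16 fits that left out 1 eye library (adjusted p 0.0537 to 0.0982).

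hist1h2ba, an H2B gene (ENSDARG00000109370, chr25:35048945-35049318), was the only replication histone to rise with PFNA in LD brains. It had 398, 413, 360.3 and 414 FPKM in the LD PFNA brains, against 142, 100.4, 296 and 239.8 FPKM in the LD DMSO brains. The PFNA brains all lay higher, by 1.15 ± 0.27 (adjusted p = 0.0174), and the call was lost without brain LD DMSO replicate 1 (adjusted p = 0.0522). In the DD groups it had 138, 127 and 123 FPKM in PFNA brains and 61.2, 71.6, 88.1 and 112 FPKM in DMSO brains. It fell with darkness in both, by 1.61 ± 0.29 with PFNA (adjusted p = 0.00428) and 1.13 ± 0.27 with DMSO (adjusted p = 0.0113), although in vehicle brains the DD and LD libraries overlapped. The other H2B gene, hist2h2l, passed no test; its highest library was 31.4 FPKM and its lowest 0.478 FPKM.

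In LD eyes the 9 replication histones that fell with PFNA were 8 H2A copies and hist1h4l, and 15 of the 21 genes had every PFNA library below every DMSO library, as did 9.53% of all genes tested. Called lower were 3.7% of all genes. The hist1h2a3 copy at chr25:35144234-35144620 had 44.1, 26.6, 51.5 and 28.3 FPKM in the LD PFNA eyes, against 96.9, 93.2, 93.8 and 82.9 FPKM in the LD DMSO eyes. The groups were well apart, and the change was -1.32 ± 0.24 (adjusted p = 0.00199). The hist1h2a11 copy at chr7:5904020-5904598 had 22.5, 33.05, 32.9 and 25.7 FPKM in the LD PFNA eyes, against 50.97, 71.5, 59.7 and 63.4 FPKM in the LD DMSO eyes, and the copy at chr7:6367904-6368406 had 42.6, 53.2, 45.4 and 37.6 FPKM in the LD PFNA eyes, against 89.9, 81.1, 71.3 and 74.6 FPKM in the LD DMSO eyes. Both were lower in every PFNA library, by 1.09 ± 0.24 (adjusted p = 0.00739) and 0.82 ± 0.21 (adjusted p = 0.0221). Of all 34 genes 10 were called lower, and that count changed with the library left out. For some genes the call was lost while the change moved little. hist1h4l lost its call at -0.95 without eye LD PFNA replicate 1 and at -1.05 without eye LD PFNA replicate 4. For others the change moved more. hist1h2a1 lost its call at -0.70 without eye LD PFNA replicate 3 and at -0.94 without eye LD DMSO replicate 2. The count of genes called lower varied as follows. It was 3 without eye LD DMSO replicate 1 or 2, 5 without eye LD DMSO replicate 3 and 6 without eye LD DMSO replicate 4. It was 3 without eye LD PFNA replicate 1, 4 without replicate 4 and 6 without replicate 3 of that group. Leaving out eye DD PFNA replicate 4, which enters only through the shared spread, gave 16 histone genes lower and 4 higher, with 14 of 21 replication histones lower, and 17.7% of all genes called (6.68% lower). Photoreceptor markers moved in the same eyes: of 12 tested, 5 fell and 0 rose with PFNA in LD eyes (7 fell without eye DD PFNA replicate 4). Their summed level was 9309 to 11716 FPKM in the LD PFNA eyes and 14772 to 18804 FPKM in the LD DMSO eyes, without overlap, with gngt1 at 0 in every library of both groups. The part of photoreceptors in the histone results was not tested.

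With darkness in vehicle eyes, 5 of the 21 replication histones fell and none rose, and 6.34% of all genes were called lower; the median change of the 21 was -0.65, against 0.027 over all genes. The hist1h2a11 copy at chr7:6367904-6368406 had 43.02, 40.8, 40.9 and 53.1 FPKM in the DD DMSO eyes, all below the LD DMSO values above, with a change of -0.82 ± 0.21 (adjusted p = 0.0216). The copy at chr7:6468174-6468611 had 77.7, 74.9, 81.8 and 121 FPKM in the DD DMSO eyes, against 168, 181, 186 and 150.5 FPKM in the LD DMSO eyes. Those groups did not overlap either (-0.96 ± 0.26, adjusted p = 0.0236). Of all 34 genes, 6 were called lower, and the count was 2 without eye DD DMSO replicate 3 or eye LD DMSO replicate 2, 3 without eye DD DMSO replicate 1, eye DD DMSO replicate 2 or eye LD DMSO replicate 3, and 13 without eye DD PFNA replicate 4. In that last fit 11 of the 21 replication histones were lower, and 22.1% of all genes were called (12.1% lower). The calls for histh1l, h1f0, h1fx, hist2h3c and h2afx were kept in all 16 of these fits. Of the 12 tested photoreceptor markers, 5 fell and 1 rose with darkness in vehicle eyes (6 and 2 without eye DD PFNA replicate 4), and their sum in the DD DMSO eyes was 10078 to 11628 FPKM, wholly below the LD DMSO eyes.

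No replication histone was called for PFNA in DD eyes, for darkness in PFNA eyes or for PFNA in DD brains with every library in the fit. In DD eyes with PFNA, 1 of the 34 genes was higher and 0 lower, against 6.54% and 4.36% of all genes. For darkness in PFNA eyes it was also 1 higher and 0 lower, against 7.04% and 9.05%. In DD brains with PFNA, 1 was higher and 0 lower, against 4.82% and 1.8% (6.62% in either direction). Leaving out single libraries added calls in these comparisons. Without eye DD PFNA replicate 4, 3 replication histones fell with PFNA in DD eyes, namely hist1h2a5 (-0.45 ± 0.14, adjusted p = 0.0401) and the copies hist1h2a10 at chr7:6441160-6441865 and hist1h2a11 at chr7:5904020-5904598. The median of the 21 was then -0.33, and 14.1% of all genes were called. Eye DD PFNA replicate 4 was picked partly for its high histone values, and leaving it out favours such falls. hist1h2ba stood at 0.84 ± 0.28 with PFNA in DD eyes (adjusted p = 0.0693), and was called higher once the fit left out replicate 4 of the DD DMSO eyes (1.14 ± 0.24, adjusted p = 0.00793) or replicate 1 of the LD DMSO eyes (adjusted p = 0.0450). For darkness in PFNA eyes without eye DD PFNA replicate 4, that hist1h2a10 copy alone was lower (-0.57 ± 0.16, adjusted p = 0.0381), with 11% of all genes called. hist1h2a4 was called higher there without eye DD PFNA replicate 1 (adjusted p = 0.0386) or replicate 2 (0.0313). In DD brains the hist1h2a11 copy at chr7:6445595-6446172 was called lower with PFNA without brain DD DMSO replicate 1 (adjusted p = 0.0407).

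H2A.X carries a tail that is phosphorylated where DNA breaks, and zebrafish have 2 genes for it. With every library no comparison within a tissue called both, and the difference between the 2 genes was not tested. h2afx (ENSDARG00000029406, chr5:30534702-30535327) fell with darkness in both tissues and with PFNA in LD eyes. It had 23.8, 32.3, 35.3 and 77.7 FPKM in the DD PFNA eyes, 32.7, 25.3, 32.3 and 40.04 FPKM in the DD DMSO eyes, 25.3, 37.9, 31.5 and 28.2 FPKM in the LD PFNA eyes and 78.8, 74.4, 77.9 and 59.18 FPKM in the LD DMSO eyes. The LD DMSO eyes lay above every library of the DD DMSO and LD PFNA eyes, while replicate 4 of the DD PFNA eyes reached into their range. The change was -1.22 ± 0.26 with PFNA in LD eyes (adjusted p = 0.00631) and -1.14 ± 0.26 with darkness in vehicle eyes (adjusted p = 0.0116). In brains it had 26.4, 28.4 and 23.7 FPKM in the DD PFNA brains, 18.8, 33.3, 36.4 and 24.2 FPKM in the DD DMSO brains, 44.3, 65.95, 46.4 and 70.3 FPKM in the LD PFNA brains and 74.8, 57.8, 69.8 and 57.2 FPKM in the LD DMSO brains. DD and LD brains did not overlap, with changes of -1.06 ± 0.21 in PFNA brains (adjusted p = 0.00715) and -1.21 ± 0.19 in vehicle brains (adjusted p = 0.00111). PFNA itself gave -0.21 ± 0.19 in LD brains (adjusted p = 0.567).

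h2afx1 (ENSDARG00000068995, chr10:29816681-29817589) was called lower in no comparison within a tissue. In brains it had 37.96, 45.2 and 26.8 FPKM in the DD PFNA brains, 22.3, 23.8, 25.1 and 26.5 FPKM in the DD DMSO brains, 54.6, 50.2, 85.5 and 38.8 FPKM in the LD PFNA brains and 23.9, 28.2, 32.5 and 38.8 FPKM in the LD DMSO brains. With PFNA in LD brains it rose by 0.83 ± 0.21 (adjusted p = 0.0268), and the lowest PFNA brain and the highest vehicle brain were equal to 3 digits. That call was lost without brain LD DMSO replicate 1 (adjusted p = 0.0748) or replicate 2 (0.0633), or without brain LD PFNA replicate 1 (0.0615) or replicate 3 (0.0677). In eyes it had 39.8, 35.5, 46.3 and 27.5 FPKM in the DD PFNA eyes, 14.4, 26.4, 19.6 and 19.2 FPKM in the DD DMSO eyes, 40.1, 24.96, 61.2 and 21.2 FPKM in the LD PFNA eyes and 10.5, 19.5, 22.2 and 19.6 FPKM in the LD DMSO eyes. The DD groups did not overlap, and with every library neither PFNA difference was called (0.93 ± 0.30, adjusted p = 0.0567 in LD; 0.88 ± 0.30, adjusted p = 0.0691 in DD). Without eye DD PFNA replicate 4 both were called, at 0.93 ± 0.29 in LD (adjusted p = 0.0401) and 1.013 ± 0.32 in DD (adjusted p = 0.0451), as was the LD one without eye LD PFNA replicate 4 (adjusted p = 0.0275) and the DD one without eye LD PFNA replicate 3 (0.0356). h2afx1 and the H2B gene hist2h2l lie next to each other on chromosome 10 on opposite strands.

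**Figure D3:**
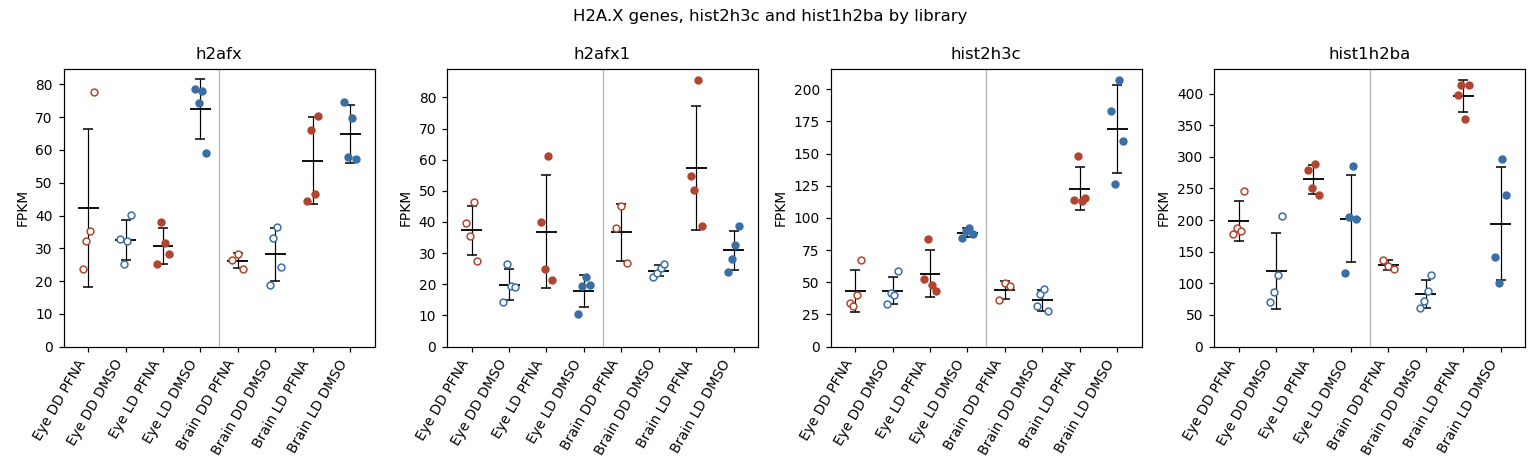
FPKM of the H2A.X genes h2afx and h2afx1, the H3 gene hist2h3c and the H2B gene hist1h2ba in every library by group (open DD, filled LD, red PFNA, blue DMSO; bars mean and SD). h2afx and hist2h3c are lower in DD than in LD brains with both treatments, and hist1h2ba is highest in the LD PFNA brains at 360.3 to 414 FPKM.

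H2A.Z marks promoters and is placed there outside S phase as well. h2afva had 32.9, 41.4, 38.1 and 81.9 FPKM in the DD PFNA eyes, 31.5, 46.4, 45.9 and 48.9 FPKM in the DD DMSO eyes, 23.8, 39.2, 39.03 and 37.3 FPKM in the LD PFNA eyes and 41.2, 38.9, 45.8 and 41.3 FPKM in the LD DMSO eyes. Brains gave 35.5, 41.4 and 36.5 FPKM in the DD PFNA brains, 48.7, 36.8, 42.2 and 42.9 FPKM in the DD DMSO brains, 32.3, 40.1, 36.7 and 40.7 FPKM in the LD PFNA brains and 38.4, 39.6, 36.5 and 34.3 FPKM in the LD DMSO brains. Groups overlapped in every comparison within a tissue. h2afvb, the other H2A.Z gene, had 13.8, 17.9, 18.9 and 41.04 FPKM in the DD PFNA eyes, 13.4, 16.9, 15.4 and 16.98 FPKM in the DD DMSO eyes, 14.7, 16.1, 15.7 and 19.1 FPKM in the LD PFNA eyes and 20.4, 24.8, 20.3 and 24.4 FPKM in the LD DMSO eyes. In brains it had 17.7, 19.7 and 18.6 FPKM in the DD PFNA brains, 29.8, 25.8, 19.4 and 20.9 FPKM in the DD DMSO brains, 23.97, 27.2, 24.5 and 27.5 FPKM in the LD PFNA brains and 29.5, 35.4, 24.98 and 27.9 FPKM in the LD DMSO brains. With every library neither H2A.Z gene was called in any of the 8 comparisons of treatment or photoperiod within a tissue; without eye DD PFNA replicate 4, h2afvb fell with PFNA in LD eyes (-0.43 ± 0.12, adjusted p = 0.0196) and with darkness in vehicle eyes (-0.49 ± 0.12, adjusted p = 0.00837). In brains h2afvb changed by -0.45 ± 0.14 with darkness in the PFNA groups (adjusted p = 0.0547), which did not overlap, and was called lower there in 4 fits that left out 1 brain library (adjusted p 0.0302 to 0.0467). In vehicle brains it was called lower without brain DD DMSO replicate 1 (adjusted p = 0.0419).

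MacroH2A carries a large extra domain and is known from silent chromatin. h2afy2 had 68.2, 74.9, 68.3 and 75.5 FPKM in the DD PFNA eyes, 73.6, 83.1, 74.5 and 80.97 FPKM in the DD DMSO eyes, 72.4, 71.5, 79.9 and 73.4 FPKM in the LD PFNA eyes and 78.3, 74.99, 85.2 and 70.03 FPKM in the LD DMSO eyes. Brains gave 151, 143 and 147 FPKM in the DD PFNA brains, 188, 148, 159 and 156 FPKM in the DD DMSO brains, 153, 157, 139 and 149.9 FPKM in the LD PFNA brains and 142, 182, 129 and 167 FPKM in the LD DMSO brains. They lay above every eye value, and within a tissue no PFNA or darkness difference was called. h2afy was low, reaching 1 FPKM in 26 of 31 libraries. It had 1.41, 2.04, 2.06 and 1.82 FPKM in the DD PFNA eyes, 1.24, 2.02, 1.95 and 2.14 FPKM in the DD DMSO eyes, 2.098, 1.103, 0.689 and 2.07 FPKM in the LD PFNA eyes and 2.07, 2.08, 1.42 and 0.662 FPKM in the LD DMSO eyes. The brain libraries had 1.12, 2.23 and 1.65 FPKM in the DD PFNA brains, 2.36, 3.75, 1.91 and 1.701 FPKM in the DD DMSO brains, 0.826, 1.06, 1.13 and 0.704 FPKM in the LD PFNA brains and 1.48, 0.968, 1.63 and 1.05 FPKM in the LD DMSO brains. With every library it was called in no comparison, and without brain DD DMSO replicate 4 it was called higher with darkness in vehicle brains (adjusted p = 0.0482).

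H3.3 replaces H3 outside S phase, at active genes in particular. h3f3a had 177, 174, 172 and 378 FPKM in the DD PFNA eyes, 159, 221, 196 and 246 FPKM in the DD DMSO eyes, 144, 163, 191 and 167 FPKM in the LD PFNA eyes and 228, 229, 192 and 201 FPKM in the LD DMSO eyes. In brains it had 205, 245 and 246 FPKM in the DD PFNA brains, 259, 263, 273 and 285 FPKM in the DD DMSO brains, 286, 325, 279 and 318 FPKM in the LD PFNA brains and 331, 278, 297 and 305 FPKM in the LD DMSO brains. It fell with darkness in PFNA brains by 0.38 ± 0.094 (adjusted p = 0.0206), without overlap; the call was lost without brain DD PFNA replicate 1 (adjusted p = 0.103), brain LD PFNA replicate 2 (0.0656) or brain LD PFNA replicate 4 (0.0601). The h3f3b.1 gene on chromosome 24 (chr24:37688729-37693028) had 125, 144, 135 and 243 FPKM in the DD PFNA eyes, 105, 111, 135 and 118 FPKM in the DD DMSO eyes, 131, 138, 119 and 145 FPKM in the LD PFNA eyes and 132, 145, 136 and 132 FPKM in the LD DMSO eyes. The brain libraries had 123, 132 and 157 FPKM in the DD PFNA brains, 128, 129, 179.8 and 129 FPKM in the DD DMSO brains, 234, 262, 211 and 237 FPKM in the LD PFNA brains and 278, 185, 261 and 258 FPKM in the LD DMSO brains. DD brains were below LD brains with both treatments, and it fell by 0.78 ± 0.15 in PFNA brains (adjusted p = 0.00699) and 0.79 ± 0.14 in vehicle brains (adjusted p = 0.00222). The h3f3b.1 gene on chromosome 15 (chr15:47860045-47865063) had 210.3, 219, 217 and 336 FPKM in the DD PFNA eyes, 194, 211, 206 and 217 FPKM in the DD DMSO eyes, 176, 181, 221 and 198 FPKM in the LD PFNA eyes and 238, 222, 195 and 208 FPKM in the LD DMSO eyes. Brains gave 178, 175 and 177 FPKM in the DD PFNA brains, 224, 201, 188 and 177 FPKM in the DD DMSO brains, 154, 159, 146 and 156 FPKM in the LD PFNA brains and 149, 241, 111 and 184 FPKM in the LD DMSO brains. With every library it was called in none of the 8 comparisons, and without brain LD DMSO replicate 2 it was called higher with darkness in vehicle brains (adjusted p = 0.0370). h3f3c, the last H3.3 gene, had 99.5, 114, 74.1 and 129 FPKM in the DD PFNA eyes, 83.2, 172, 130.4 and 61.2 FPKM in the DD DMSO eyes, 96.6, 115, 144 and 27.3 FPKM in the LD PFNA eyes and 163, 195, 143 and 147 FPKM in the LD DMSO eyes. In brains it had 118, 117 and 151 FPKM in the DD PFNA brains, 148, 204, 143 and 76.6 FPKM in the DD DMSO brains, 95.9, 115, 143 and 36.02 FPKM in the LD PFNA brains and 148, 207, 109 and 141 FPKM in the LD DMSO brains. Its libraries varied widely within most groups, and none of its differences was called.

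**Figure D4:**
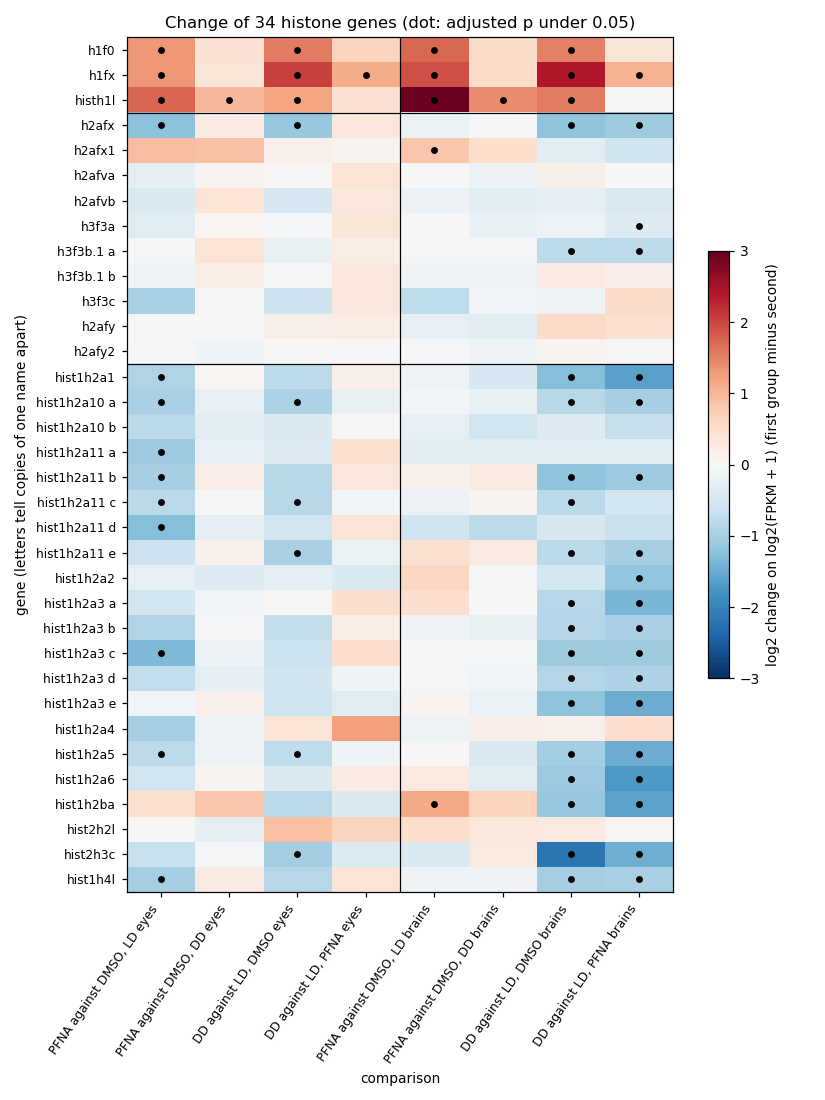
Change of each of the 34 genes (linkers, then variants, then replication histones) in 8 comparisons, eyes first and brains after, as log2(FPKM + 1) differences with the colour range ending at 3 in both directions; dots mark an adjusted p under 0.05 and letters number same-named copies by position. The linker block is positive throughout, while the replication block is negative for darkness in both brain columns, apart from hist1h2a4 and hist2h2l, and for PFNA in LD eyes, apart from hist1h2ba.

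The members not named above are given by count. With all libraries, 13 of 34 genes were called with PFNA in LD eyes (3 higher, 10 lower), and 5 of 34 in LD brains (5 higher, 0 lower). With darkness, 20 of 34 were called in vehicle brains (3 higher, 17 lower), 19 of 34 in PFNA brains (1 higher, 18 lower) and 9 of 34 in vehicle eyes (3 higher, 6 lower). The shares of all genes called in either direction were 10.7%, 7.9%, 16.1%, 9.63% and 12.6% in the same order. Leaving out 1 library also added calls for some genes not called with every library: over all such fits these were 7 genes for PFNA in LD eyes and 5 in DD eyes, 0 in LD brains and 2 in DD brains, and for darkness 8 in vehicle eyes, 3 in PFNA eyes, 4 in vehicle brains and 2 in PFNA brains. In vehicle brains all 20 calls were kept whichever single brain library was left out; in PFNA brains 14 of 19 were. The 5 that were lost in some fit were h3f3a, hist1h4l, hist1h2a2, the hist1h2a11 copy at chr7:6468174-6468611 and the hist1h2a3 copy at chr25:36311333-36311719, with adjusted p between 0.0507 and 0.148. In LD eyes 6 of 13 calls were kept in every fit, namely histh1l, h1f0, h1fx, h2afx, and the hist1h2a3 and hist1h2a11 copies at chr25:35144234-35144620 and chr7:5904020-5904598.

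Between the tissues of LD DMSO embryos, 7 histone genes were higher and 5 lower in eyes than in brains, against 23.9% and 23.6% of all genes (47.4% in either direction). histh1l was higher in eyes by 1.88 ± 0.27 (adjusted p = 1.23e-06) and h1fx by 0.95 ± 0.26 (adjusted p = 0.00300). h2afy2 was lower in eyes by 0.99 ± 0.092 (adjusted p = 3.40e-10), as were hist2h3c, h3f3a, h2afx1 and the h3f3b.1 gene on chromosome 24. Of the replication H2A copies, 4 of 8 on chromosome 7 were higher in eyes and none of 9 on chromosome 25. Without eye DD PFNA replicate 4, 9 were higher and 6 lower (25.5% and 25.1% of all genes), the added ones being h2afvb (lower), hist1h4l and the hist1h2a3 copy at chr25:35133404-35133790 (higher); that copy was called in 7 fits that left out 1 library (adjusted p 0.00883 to 0.0497). The call for the chromosome 15 h3f3b.1 gene (0.38 ± 0.16) was lost in 15 of 31 fits that left out 1 library. That of h2afx1 was lost without brain LD DMSO replicate 4 (adjusted p = 0.0710) or eye LD DMSO replicate 1 (0.109), that of the hist1h2a10 copy at chr7:6441160-6441865 without brain LD DMSO replicate 3 (0.0576), and that of the hist1h2a11 copy at chr7:6367904-6368406 without brain LD DMSO replicate 2 (0.0640). Whether PFNA acted differently in the tissues was tested directly. These tests, and that of eyes against brains, took same-numbered eyes and brains as independent. A pairing of them was not tested, although h3f3c and h2afx1 kept the same replicate order in LD PFNA eyes and brains. Results seen in both tissues are therefore not shown to be independent of each other. In LD no histone gene was called in limma for the PFNA effect in eyes minus that in brains, although 14 had an unadjusted p under 0.05 and the smallest adjusted p was 0.0964; 0.189% of all genes were called. In DD none was called either, with 1 gene under an unadjusted p of 0.05 and 1.04% of all genes called. With every library none was called for darkness in vehicle embryos, with 5 under an unadjusted p of 0.05, against 0.633% of all genes. Voom on recovered fragments also called 0 in these 3 tests.

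Genes that copy DNA moved with darkness beside the replication histones. Of 45 tested DNA replication genes (helicase, polymerase, nucleotide supply and origin genes), 20 fell and 0 rose with darkness in vehicle brains, and 6 fell and 0 rose in PFNA brains. In eyes 21 fell and 0 rose in the vehicle group (26 without eye DD PFNA replicate 4), and 7 fell and 0 rose in the PFNA group (6 without that library). Averages of list genes, here and below, carry the SD over libraries. mcm2, a subunit of the replicative helicase, averaged 4.45 ± 0.725 FPKM in the DD DMSO brains and 10.2 ± 1.19 FPKM in the LD DMSO brains. rrm1, which makes deoxyribonucleotides, averaged 7.05 ± 1.42 FPKM in the DD DMSO brains and 14.98 ± 2.27 FPKM in the LD DMSO brains. With PFNA, 8 fell and 1 rose in LD eyes (15 and 1 without that library), 3 fell and 2 rose in LD brains, 2 fell and 1 rose in DD eyes (1 and 1 without it), and 0 fell and 2 rose in DD brains. mcm5, another helicase subunit, averaged 8.15 ± 0.2004 FPKM in the LD PFNA eyes and 20.7 ± 2.13 FPKM in the LD DMSO eyes. The whole list summed to 237 to 282 FPKM in the DD DMSO brains, against 387 to 425 FPKM in the LD DMSO brains. Set against these and the following lists, the shares of all genes called lower with darkness were 9.68% in vehicle brains, 5.97% in PFNA brains, 6.34% in vehicle eyes (12.1% without eye DD PFNA replicate 4) and 9.05% in PFNA eyes (6.5%). With PFNA they were 3.7% in LD eyes (6.68%), 4.36% in DD eyes (5.51%), 2.28% in LD brains and 1.8% in DD brains.

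Some mitosis genes fell in each of the 8 comparisons. Of 29 tested, 15 fell with darkness in vehicle brains, 13 in PFNA brains, 17 in vehicle eyes (17 without eye DD PFNA replicate 4) and 12 in PFNA eyes (9 without it). With PFNA, 14 fell in LD eyes (18 without it), 11 in DD eyes (12 without it), 6 in LD brains and 5 in DD brains; none rose in any of the 8. mki67, a marker of cycling cells, averaged 10.8 ± 1.93 FPKM in the DD DMSO brains and 19.2 ± 0.935 FPKM in the LD DMSO brains. tpx2, a spindle assembly factor, averaged 6.96 ± 0.1800 FPKM in the LD PFNA eyes and 15.03 ± 1.15 FPKM in the LD DMSO eyes. Progenitor markers fell in part: of 24 tested, 6 fell with darkness in vehicle brains, 9 in PFNA brains, 5 in vehicle eyes (8 without eye DD PFNA replicate 4) and 10 in PFNA eyes (9 without it), and with PFNA 3 fell and 1 rose in LD eyes (8 and 1 without that library), 8 fell and 1 rose in DD eyes (10 and 1 without it) and 4 fell in DD brains. Their sum was 375 to 421 FPKM in the DD DMSO brains, against 490.3 to 568 FPKM in the LD DMSO brains, with her9 at 0 in every library of both groups. Erythroid markers, 5 tested, fell in 2 cases with darkness in vehicle brains and in 1 in PFNA brains. Their sum was 9.19 to 18.02 FPKM in the DD PFNA brains against 27.6 to 62.4 FPKM in the LD PFNA brains, and 11.04 to 16.6 FPKM in the DD DMSO brains against 18.2 to 37.1 FPKM in the LD DMSO brains, with alas2 and hbba1 at 0 in all of them. The part of these cells in the histone changes was not tested.

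Genes that handle histone proteins and histone mRNA moved in part. Counts of 1 or 2 genes in these lists are no result about the lists; in PFNA brains, for example, 5.97% of all genes were called lower and 3.66% higher. Of 23 tested chaperone and assembly genes, 8 fell and 2 rose with darkness in vehicle brains, and 2 fell and 2 rose in PFNA brains. In eyes 5 fell in the vehicle group (10 fell and 1 rose without eye DD PFNA replicate 4) and 7 fell in the PFNA group (7 fell and 1 rose without it). chaf1b, a subunit of the assembly factor that loads H3 and H4 onto new DNA, averaged 1.21 ± 0.259 FPKM in the DD DMSO brains and 2.84 ± 0.366 FPKM in the LD DMSO brains. rbbp4, a histone-binding partner of the same factor, averaged 18.2 ± 3.05 FPKM in the DD DMSO brains and 32.4 ± 2.41 FPKM in the LD DMSO brains. With PFNA, 2 fell in LD eyes (4 fell and 1 rose without that library), 2 fell in DD eyes and none was called in LD or DD brains. Of 11 tested genes of histone mRNA processing, 4 fell with darkness in vehicle brains and 2 in vehicle eyes (4 without it); in PFNA brains 1 rose and 1 fell, and in PFNA eyes 2 fell (3 without it). npat, the S-phase activator of histone transcription in mammals, averaged 12.8 ± 1.23 FPKM in the LD PFNA brains and 9.63 ± 1.09 FPKM in the LD DMSO brains, and it was the only gene of the list called with PFNA in LD brains. In DD eyes casp8ap2 alone of the list fell with PFNA, at 5.38 ± 0.405 FPKM in the DD PFNA eyes and 7.52 ± 1.13 FPKM in the DD DMSO eyes; none was called in LD eyes (1 rose without eye DD PFNA replicate 4) or DD brains.

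The expressed histone genes outside the naming rule were counted beside the 34. Of 119 tested in brains, 78 fell and 6 rose with darkness in vehicle embryos, and 74 fell and 0 rose in PFNA embryos. The H3 genes among them fell most often, 22 of 26 in each comparison. The 18 described as H1 went against the named linkers: 13 fell with darkness in vehicle brains, with a median of -1.07, and 10 fell in PFNA brains. In vehicle eyes, without eye DD PFNA replicate 4, 7 fell and 0 rose with darkness (median -0.48). The shares of all genes in that fit were 12.1% and 10%. The sum of the 18 was 521 to 670 FPKM in the LD PFNA eyes, against 629 to 796 FPKM in the LD DMSO eyes. It was 1020 to 1300 FPKM in the LD PFNA brains, against 693 to 1308 FPKM in the LD DMSO brains, and both pairs overlapped. The means with PFNA and DMSO were 592 and 738 FPKM in LD eyes and 1177 and 1008 FPKM in LD brains. Under DD the sum was 613 to 736 FPKM in PFNA brains and 335 to 694 FPKM in DMSO brains. In DD eyes it was 555 to 1083 FPKM with PFNA (555 to 664 FPKM without replicate 4) and 449 to 716 FPKM with DMSO. These pairs overlapped too. Without eye DD PFNA replicate 4, 1 of the 18 rose and 6 fell with PFNA in LD eyes (median -0.28), against 11% and 6.68% of all genes. That library was picked partly by its histone values, so calls gained without it are no independent evidence. In LD eyes 31 of 120 fell and 3 rose with PFNA (54 and 4 without eye DD PFNA replicate 4), and in vehicle eyes 30 fell and 4 rose with darkness (64 and 6 without that library). In DD eyes 4 rose and 0 fell with PFNA (3 and 16 without it), against 6.54% and 4.36% of all genes (8.57% and 5.51%). In DD brains 4 rose and 4 fell, against 4.82% and 1.8% of all genes. In PFNA eyes 5 rose and 2 fell with darkness (4 and 8 without it), against 7.04% and 9.05% of all genes (4.49% and 6.5%). In LD brains 8 rose and 4 fell with PFNA, against 5.62% and 2.28% of all genes. Of those that rose, 5 were among the 32 described as H2B, whose median was 0.49. Counts near the share over all genes are no result about these histones.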

How the data were processed

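RNA was sequenced from dissected eyes and brains (paired ends, random-hexamer priming, per the labels' protocols). The authors deposited 1 table of FPKM per gene and library, with gene lengths, positions and types. HISAT2 2.0.5 and featureCounts 1.5.0-p3 appear in the submitters' processing notes, without their roles; genome build and annotation are not given in the sources. Its 2 columns of group means were not used. Multiplying FPKM by gene length gave whole fragments per gene (100% of values, tolerance 0.05) and library totals between 8.83 and 16.13 M fragments. The divisor behind the FPKM was not the library total. It ran from 0.899 to 1.16 times that total and was lowest in eye DD PFNA replicate 4.

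Tests used limma 3.58.1 (R 4.3.3; lmFit and trended eBayes) on log2(FPKM + 1), a scale that understates changes of genes near 1 FPKM. One mean per group was fitted, keeping genes with 1 FPKM or more in 4 or more fitted libraries: 18204 genes in the 16 eyes, 17216 in 15 brains and 19576 in both tissues. Tests were two-sided, adjusted by the Benjamini-Hochberg method over all genes, and called under 0.05. Brain DD PFNA replicate 3 was left out. The scripts were tested on simulated data. Within a tissue, same replicate numbers gave correlations of deviations from group means between -0.296 and 0.271. Of these pairs, 2 of 24 were above 0.1 in eyes and 7 of 21 in brains. Among pairs of different numbers it was 1 of 72 in eyes and 10 of 63 in brains. Same numbers thus passed 0.1 more often, but numbers were not taken to pair libraries in the main fits. Eyes and brains of the same number were not compared in this way. Values of h3f3c ran alike in them, at 96.6, 115, 144 and 27.3 FPKM in the LD PFNA eyes and 95.9, 115, 143 and 36.02 FPKM in the LD PFNA brains. h2afx1 also kept its replicate order, at 40.1, 24.96, 61.2 and 21.2 FPKM in those eyes and 54.6, 50.2, 85.5 and 38.8 FPKM in those brains. These genes were picked after their values were seen, and the other members were not counted in this way. The fits of both tissues took such libraries as independent. Alternatives were another pseudocount, no filter, median-ratio scaling, a replicate block, voom on recovered fragments, brain DD PFNA replicate 3 included, and each library left out. Values by library are given for up to 3 called members of smallest p per class and comparison, and for all H2A.Z, H2A.X, macroH2A, H3.3 and H1.0 genes; lists name up to 3 called genes of smallest p. Members and lists were chosen with earlier results of these data known. The list genes lsm10, ncbp1, asf1a and incenp were not matched.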

Additional observations from a re-analysis of the deposited data

Results flagged for a closer look

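Of 238 sets of 4 libraries of one gene, 20 held a library far from the other 3 by Dixon's test; chance alone gives about 1 in 20. In 11 of the 20 that library was eye DD PFNA replicate 4, which was the high one each time. Its values were 221 FPKM for h1fx (other replicates 104 to 115 FPKM), 245 FPKM for hist1h2ba (177 to 187 FPKM), 378 FPKM for h3f3a (172 to 177 FPKM), and 243 FPKM (125 to 144 FPKM) and 336 FPKM (210.3 to 219 FPKM) for the h3f3b.1 genes on chromosomes 24 and 15. For the H2A copies they were 40.2 FPKM for hist1h2a10 on chromosome 7 (13.5 to 16.8 FPKM), 167 FPKM for hist1h2a5 (67.8 to 75.2 FPKM) and 115 FPKM for hist1h2a6 (56.0 to 60.3 FPKM). The hist1h2a11 copies at chr7:5904020-5904598, chr7:6367904-6368406 and chr7:6468174-6468611 stood at 73.1 FPKM (29.8 to 35.4 FPKM), 78.3 FPKM (32.5 to 35.2 FPKM) and 192 FPKM (69.8 to 85.1 FPKM).

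In the DD DMSO eyes, replicate 4 was high for hist1h2a5 (137 FPKM, others 83.3 to 90.8 FPKM) and for the hist1h2a11 copy at chr7:6468174-6468611 (121 FPKM, others 74.9 to 81.8 FPKM), and replicate 1 was low for h2afva (31.5 FPKM, others 45.9 to 48.9 FPKM). In the LD PFNA eyes, replicate 3 was low for hist1h2a10 on chromosome 25 (23.5 FPKM, others 33.3 to 35.3 FPKM) and high for the hist1h2a3 copy at chr25:36348401-36349012 (105 FPKM, others 58.4 to 65.1 FPKM), and replicate 1 was low for h2afva (23.8 FPKM, others 37.3 to 39.2 FPKM). In brains, LD PFNA replicate 2 was high for hist2h3c (148 FPKM, others 113 to 116 FPKM), DD DMSO replicate 3 for the h3f3b.1 gene on chromosome 24 (179.8 FPKM, others 128 to 129 FPKM) and LD DMSO replicate 1 for hist1h2a1 (116 FPKM, others 76.0 to 82.3 FPKM).

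In the library left out, labelled brain DD PFNA replicate 3, the linkers summed to 2283 FPKM, above the 677 to 1162 FPKM of the DD DMSO brains and within the 1856 to 3433 FPKM of the DD PFNA eyes.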

How the results depend on the processing

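With every library, 81 results for single histone genes were called. All 81 kept their direction and call with a pseudocount of 0.1, with median-ratio scaling and with voom on recovered fragments; without the filter 8 lost the call, with the replicate block 2, and with brain DD PFNA replicate 3 included 2. Leaving out 1 library ended 114 of 1431 such calls, and no setting turned a direction. Histone genes called numbered 8 without the filter for PFNA in LD eyes. Voom gave 2 for PFNA in DD eyes, 15 for darkness in DMSO eyes, 2 for darkness in PFNA eyes and 2 for PFNA in DD brains. The replicate block gave 2 for PFNA in DD eyes and, for darkness in DMSO eyes, 10 lower in place of 6; it moved no other histone count, in either direction, by over 1.5 times; for the PFNA effect in DD minus LD in brains it called 0 of all genes.

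Over all genes, including brain DD PFNA replicate 3 gave 405 calls for PFNA in LD brains, 719 for PFNA in DD brains, 1085 for darkness in DMSO brains, 0 for the PFNA effect in DD minus LD in brains, 0 and 1 for the PFNA effect in eyes minus brains in LD and DD, and 14 for the darkness effect in eyes minus brains. The mean sums of the DD PFNA brains became 905 FPKM for replication histones and 1819 FPKM for linkers. For the PFNA effect in DD minus LD in brains, the pseudocount gave 2, no filter 4, median-ratio scaling 7 and voom 7. For the PFNA effect in eyes minus brains, the pseudocount gave 18 in LD and 102 in DD and voom 19 and 86; for the darkness effect they gave 62 and 39.

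Leaving out 1 library, histone genes called ran from 6 to 20 and all genes from 1307 to 3198 for PFNA in LD eyes, 1 to 5 and 1329 to 2541 in DD eyes, 3 to 5 and 838 to 1542 in LD brains, and 0 to 2 and 551 to 1388 in DD brains. For darkness they ran from 5 to 16 and 1253 to 3993 in DMSO eyes, 0 to 3 and 1467 to 3565 in PFNA eyes, 20 to 22 and 1948 to 3141 in DMSO brains, and 15 to 20 and 671 to 2023 in PFNA brains. For the PFNA effect in DD minus LD they ran from 0 to 0 and 6 to 57 in eyes and 0 to 1 and 0 to 20 in brains. For eyes against brains in LD DMSO they ran from 10 to 15 and 8477 to 9855. For eyes minus brains, all genes ran from 20 to 117 (PFNA, LD), 120 to 240 (PFNA, DD) and 77 to 272 (darkness), with 0, 0 and 0 to 1 histone genes. The causes were not tested. Low copies rest on few fragments, 4 at the lowest, and the sums and ratios carry no test.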
